A study of Homo sapiens with 8 samples.

Results

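The 10 listed genes code for enzymes, or subunits and partners of enzymes, that make prostaglandins and leukotrienes or break them down. They were taken by name, and a gene counted as measured when it had a row in the RPKM table of 14526 genes (RPKM, reads scaled to gene length and library size). By that rule 8 of the 10 were measured, namely PTGS2, PTGES, PTGES2, PTGES3, PTGR2, LTA4H, CBR1 and HPGD. The other 2, PTGS1 and PTGR1, had no row. The table holds only genes above the authors' expression threshold, so a gene without a row is not thereby shown to be silent.

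RNA was sequenced from cells labelled HepG2, a line derived from a human liver carcinoma, grown in DMEM with fetal bovine serum. The control group held 4 untreated cultures, for which no vehicle is named, and the SB-treated group held 4 cultures kept for 24 h with 10 mM sodium benzoate (SB), a food preservative. All 8 libraries thus come from 1 transformed line in 1 medium. The replicates are called biological, and nothing says how the cultures were separated in time, so p-values measure the spread between these libraries.

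Prostaglandins and leukotrienes are short-range lipid signals made from arachidonic acid. Phospholipases free the acid from membranes, the cyclooxygenases PTGS1 and PTGS2 turn it into prostaglandin H2, and terminal synthases turn that into prostaglandin E2, D2, F2-alpha, prostacyclin or thromboxane. On the other branch, 5-lipoxygenase makes leukotriene A4, which LTA4H converts into leukotriene B4. HPGD, PTGR1, PTGR2 and CBR1 oxidize or reduce the products, and HPGD is the enzyme that starts the inactivation of prostaglandin E2. In liver, prostaglandin E2 is best known as a product of Kupffer cells that acts on hepatocytes, and PTGS2 as a gene that inflammatory signals and growth factors induce.

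The libraries held between 36990091 and 44878446 recovered reads. Control replicate 1 stood apart: its value was far from those of the other 3 controls for 14.6% of genes, against 0.317% to 0.62% for each of the other controls, and GC content accounted for 58.2% of the variance of its difference from them over 11572 genes. Results are therefore also given without it where that matters, and its part in a result was otherwise not tested. Of 19 hepatocyte markers, 18 had no row, ALB, AFP, APOA1, TTR and SERPINA1 among them, so the labelled cell type was not borne out by its defining markers. The 1 that did, TF, was 0.167 to 0.211 RPKM in the controls and 0.316 to 0.485 RPKM in the SB-treated libraries. Of 10 leukocyte markers, 4 had a row, summing to 3.47 to 3.88 RPKM in the controls and 3.54 to 4.29 RPKM after SB; PTPRC and CD14 had none. Of the 4, CD68 rose (log2 difference 0.23, adjusted p = 0.0173 by limma). Of 8 fibroblast markers, 4 had a row, summing to 6.63 to 8.97 RPKM and 6.62 to 6.98 RPKM. Among them COL1A1 was 3.48, 5.35, 5.38 and 5.24 RPKM in control replicates 1 to 4 and 4.055 to 4.132 RPKM after SB. COL1A1 did not pass the test with all libraries (log2 difference -0.19, adjusted p = 0.133 by limma). Without control replicate 1 it fell (-0.31, adjusted p = 2.38e-06 by limma). Other single markers moved in opposite directions. COL3A1 fell from 2.49 ± 0.226 to 1.497 ± 0.0944 RPKM (adjusted p = 3.35e-05 by limma). LUM rose from 0.347 ± 0.145 to 0.610 ± 0.0173 RPKM (adjusted p = 0.00803 by limma), over 11 to 44 reads per control and 48 to 62 per SB-treated library. Whether any of these markers moved with the enzymes for a shared reason was not tested. In bulk RNA, fewer cells of a type and less RNA per cell cannot be told apart.

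Of the 8 measured enzymes, PTGS2 rose, 6 fell and PTGR2 did not pass the test. The cyclooxygenase gene was 2.03 times as high in SB-treated cells, from a low level, whereas all 3 prostaglandin E synthase genes, LTA4H, CBR1 and HPGD were lower by 19.0% to 43.0%. A change here means an adjusted p below 0.05 by limma, fitted to log2(RPKM + 1) and adjusted by the Benjamini-Hochberg method for the 14526 genes of the table. SB moved much of the table: 65.6% of all genes passed that test, 33.0% higher and 32.6% lower. The share of the enzymes that passed, 87.5%, is read against that background. In 61.5% of all genes the 4 control and 4 SB-treated values did not overlap (31.0% higher, 30.5% lower), as in all 7 enzymes that changed, each of which had the smallest p that an exact permutation test allows here, 0.0286. The median log2 difference over the 8 enzymes was -0.32, beside 0.0045 over all genes.

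**Figure D1:**
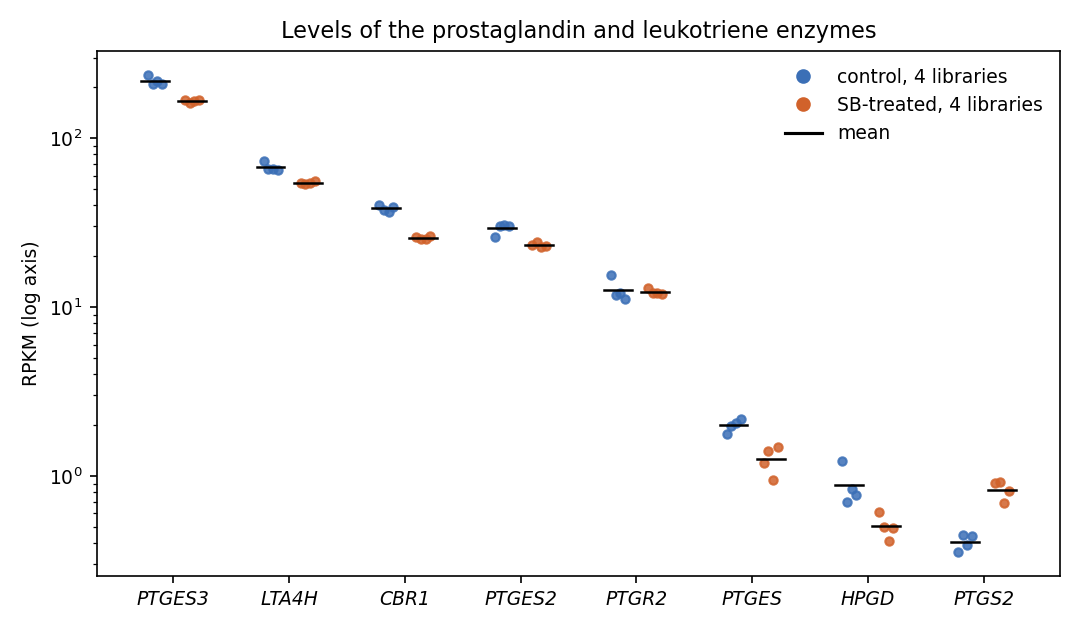
RPKM of the 8 measured enzymes on a log axis, ordered by their control mean, with 1 point per library (blue, control; orange, SB-treated) and a black line at each mean. Single values span from 0.356 RPKM (PTGS2) to 237.6 RPKM (PTGES3), and PTGS2 is the gene whose orange points lie above its blue ones.

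From the highest to the lowest, the enzymes differed far more in level than SB changed any of them. Neighbours could lie closer: CBR1 was 1.31 times PTGES2 in the controls, less than its own 1.49-fold fall with SB. Among control libraries the order by mean RPKM, a scale that is per length, was PTGES3, LTA4H, CBR1, PTGES2, PTGR2, PTGES, HPGD and PTGS2. The 4 values of each gene did not overlap with those of the next in either group. PTGES3, at 218.3 ± 13.3 RPKM (SD, n = 4), was above 98.6% of all genes in the controls. PTGS2, at 0.409 ± 0.0431 RPKM, was above 5.98% of genes in the controls and above 10.9% after SB. The closest neighbours after SB were CBR1 and PTGES2, whose means differed 1.11-fold. The order after SB was the same but for its last places, where PTGS2 was above HPGD. The ratio of HPGD to PTGS2 was 3.45, 1.58, 2.12 and 1.74 in control replicates 1 to 4, and 0.676, 0.543, 0.601 and 0.602 in the SB-treated ones. HPGD was thus the higher of the pair in every control library and the lower in every SB-treated one, a description of a pair picked after its values were seen.

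PTGS2, the inducible cyclooxygenase (COX-2), catalyzes the committed step from arachidonic acid to prostaglandin H2. Its gene lies on the minus strand of chromosome 1 (hg38, 186671791 to 186680922, GENCODE 44, 10 exons). Its promoter is printed because PTGS2 is the enzyme of this group that rose, and that of PTGES, which codes for its inducible partner synthase, because it fell. Both are the 250 bases that end just before the RefSeq start (GRCh38.p14), read 5′ to 3′ on the gene's strand, chr1:186680424-186680673 for PTGS2 and chr9:129753043-129753292 for PTGES. Capitals mark a TATA box (TATAAA) and a CCAAT box read on the opposite strand (ATTGG) in PTGS2, and GC boxes (GGGCGG) in PTGES.
PTGS2: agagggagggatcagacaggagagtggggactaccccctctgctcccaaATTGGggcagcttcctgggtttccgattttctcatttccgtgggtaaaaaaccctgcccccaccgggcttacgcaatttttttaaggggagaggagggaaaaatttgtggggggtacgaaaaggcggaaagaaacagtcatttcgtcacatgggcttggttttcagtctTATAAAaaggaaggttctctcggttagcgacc
PTGES: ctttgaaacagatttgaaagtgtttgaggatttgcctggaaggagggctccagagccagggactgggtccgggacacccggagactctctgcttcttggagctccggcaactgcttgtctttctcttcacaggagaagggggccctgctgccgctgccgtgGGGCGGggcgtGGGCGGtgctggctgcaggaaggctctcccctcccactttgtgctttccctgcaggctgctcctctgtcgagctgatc
Counted back from the PTGS2 start, the TATA box began at position -32 and the CCAAT box at -201. Searched on both strands over the 250 bases before 35116 RefSeq starts, TATAAA was found in 10.7%, CCAAT in 32.0% and GGGCGG in 42.6%. Among the 8 measured enzymes TATAAA was found at PTGS2 alone. GGGCGG was found at PTGES, PTGES2, PTGES3, PTGR2, CBR1 and HPGD but not at PTGS2 or LTA4H. The antioxidant response element core TGACNNNGC, found in 10.9% of all promoters, occurred at PTGES2, PTGES3 and CBR1. TGACGT, the cAMP response element core (7.1% of all), occurred at PTGR2, CACGTG (6.34%) at PTGES2 and CBR1, and TGANTCA, an AP-1 site (6.57%), at none. A gene counted as a match if the window of any of its RefSeq starts held the letters, and PTGES2 and PTGR2 have several such windows. The shares are per start, so they are not shares of genes with a match. These matches describe letters in a window and do not show binding. The PTGS2 window overlaps no annotated UTR, lies within the longer GENCODE span of the gene, and reaches into the annotated start of PACERR, an antisense noncoding RNA with no row in the table.

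PTGS2 was 0.356, 0.447, 0.393 and 0.441 RPKM in control replicates 1 to 4, and 0.903, 0.918, 0.689 and 0.813 RPKM in SB-treated replicates 1 to 4. Every SB-treated library was above every control library. These levels rest on 63 to 81 reads per control library and 131 to 170 per SB-treated library. The mean rose from 0.409 ± 0.0431 to 0.831 ± 0.105 RPKM (SD, n = 4), a difference of 0.38 on the log2(RPKM + 1) scale (SE 0.0474, 95% interval 0.27 to 0.48, adjusted p = 8.77e-05 by limma). A pseudocount of 1 compresses the change of a gene at this level, and voom on the recovered reads gave a log2 fold change of 1.01. The spread between control libraries, a coefficient of variation of 10.5%, was about that of read counting alone (11.7%). Without control replicate 1 the log2 difference was 0.36 (adjusted p = 6.7e-05 by limma). By size of the log2(RPKM + 1) difference PTGS2 stood at rank 1492 from the highest of all genes. PTGS2 is also on a gene list that the study selected on these same libraries, so its rise is not independent evidence of that list's direction. The study reported a rise of PTGS2 by quantitative PCR of reverse-transcribed RNA as well, a separate measure that was not examined here.

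**Figure D2:**
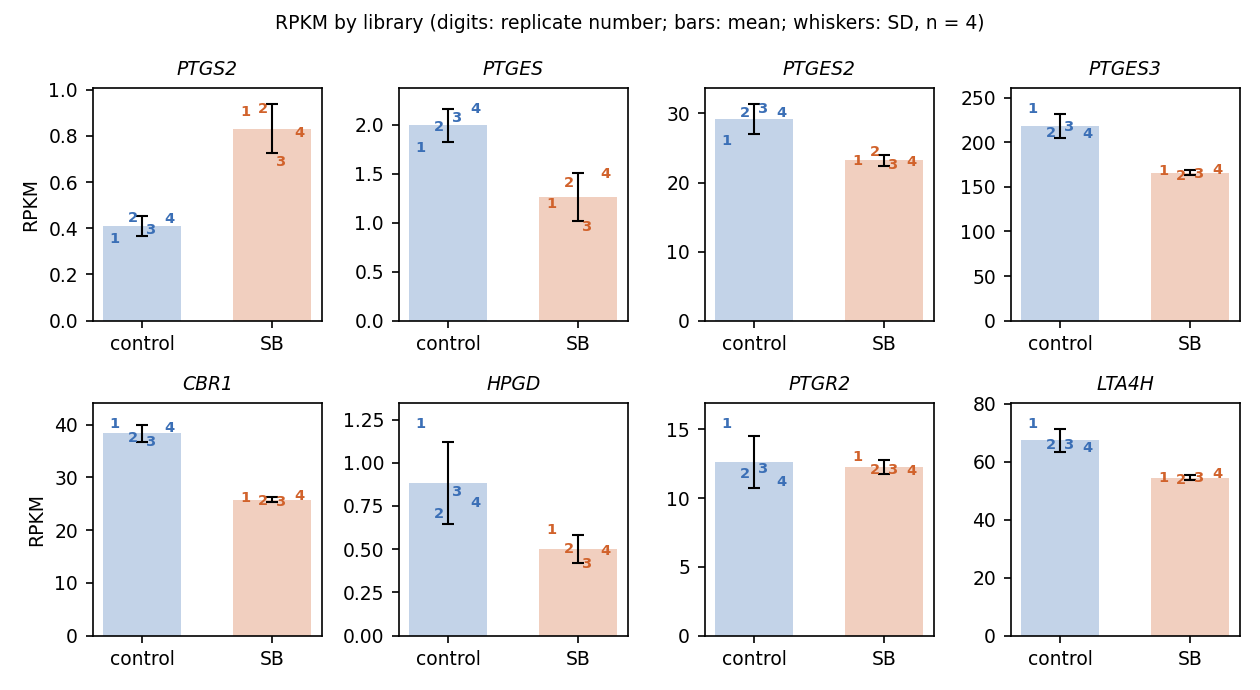
RPKM of each enzyme in each library, from 0, with 1 panel per gene. Digits mark replicate numbers, bars are means and whiskers are SDs (n = 4). Control replicate 1 (blue 1) is the highest control for PTGES3, CBR1, HPGD, PTGR2 and LTA4H and the lowest for PTGS2, PTGES and PTGES2.

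The genes whose profile over the 8 libraries lay closest to that of PTGS2 were sought by the root mean square difference of log2(RPKM + 1), centered on the control mean. They were EHMT1, a histone H3 lysine 9 methyltransferase (0.0355), ARSG, a lysosomal sulfatase (0.0389), INHBB, the activin B subunit (0.0391), LOC101928336 (0.0412) and SLC5A10, a sugar transporter (0.0417). EHMT1 rose from 12.4 ± 0.362 to 16.7 ± 0.493 RPKM and INHBB from 1.01 ± 0.0647 to 1.60 ± 0.0782 RPKM (SD, n = 4). With a pseudocount of 0.1 in place of 1, 0 of these 5 were among the closest 5, so the list is set by the scale.

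All 3 genes named for prostaglandin E synthases fell in SB-treated cells, each without overlap between the groups. PTGES, PTGES2 and PTGES3 are unrelated in sequence and share only the reaction from prostaglandin H2 to prostaglandin E2. PTGES (mPGES-1, chromosome 9, 129738331 to 129753042, minus strand, 3 exons) is the inducible membrane enzyme that is usually coupled to PTGS2. It was 1.76, 1.98, 2.07 and 2.16 RPKM in control replicates 1 to 4 and 1.19, 1.41, 0.952 and 1.49 RPKM in SB-treated replicates 1 to 4. Even the lowest control was above the highest SB-treated library. Its mean fell by 36.7%, from 1.99 ± 0.172 to 1.26 ± 0.241 RPKM (SD, n = 4), over 72 to 158 reads per library. The log2(RPKM + 1) difference was -0.41 (SE 0.0763, 95% interval -0.58 to -0.24, adjusted p = 0.00107 by limma), and voom gave -0.67.

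PTGES2 (mPGES-2, chromosome 9, 128120693 to 128128462, minus strand, 7 exons) codes for a membrane-associated synthase found at the Golgi. It was 26.0, 30.1, 30.7 and 30.1 RPKM in control replicates 1 to 4 and 23.2, 24.4, 22.5 and 23.0 RPKM in the SB-treated ones. Control replicate 1 was the control nearest to the treated group. The mean fell by 20.4%, from 29.2 ± 2.17 to 23.3 ± 0.791 RPKM, a log2(RPKM + 1) difference of -0.31 (SE 0.0546, adjusted p = 0.000689 by limma), and of -0.37 without that library. PTGES2-AS1, a noncoding RNA that starts beside PTGES2 on the other strand, was 2.18 ± 0.365 RPKM in the controls and 2.38 ± 0.161 RPKM after SB (log2 difference 0.09, adjusted p = 0.287 by limma). Without control replicate 1, its highest library, the difference was 0.17 (adjusted p = 0.00449 by limma), so the call depended on that library.

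PTGES3 (chromosome 12, 56663341 to 56688408, minus strand, 8 exons) codes for the cytosolic synthase, which is also p23, a co-chaperone of HSP90. It was 237.6, 209.9, 216.7 and 209.0 RPKM in the controls and 168.1, 162.2, 164.8 and 169.0 RPKM in the SB-treated libraries. The groups lay apart by more than the spread of either. The mean fell by 24.0% to 166.0 ± 3.13 RPKM, a log2(RPKM + 1) difference of -0.39 (SE 0.0457, adjusted p = 5.39e-05 by limma). PTGES3L, a gene related to PTGES3 in sequence, fell from 1.18 ± 0.093 to 0.996 ± 0.0382 RPKM (log2 difference -0.12, adjusted p = 0.0184 by limma), a call that a GC correction ends (0.0062).

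Since PTGES3 doubles as p23, the other HSP90 genes were read beside it. Of 9 genes for HSP90 and its co-chaperones, 0 rose, 8 fell and 1 did not pass the test, where 32.6% of all genes fell. Their median log2 difference was -0.38, beside 0.0045 over all genes. CDC37, the co-chaperone that brings kinases to HSP90, fell from 149.5 ± 7.45 to 105.1 ± 2.83 RPKM (log2 difference -0.50, adjusted p = 8.08e-06 by limma). HSP90AB1, the constitutive HSP90, fell from 642.9 ± 18.7 to 475.9 ± 5.49 RPKM (-0.43, adjusted p = 4.81e-06 by limma). HSP90AA1, the stress-inducible HSP90, was 613.4 ± 58.7 RPKM in the controls and 575.8 ± 14.1 RPKM after SB (-0.09, adjusted p = 0.238 by limma).

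The synthases were also compared with each other, through the within-library difference of their log2(RPKM + 1) values by exact permutation of the 8 libraries (two-sided; smallest p 0.0286). PTGES fell by 0.09 more than PTGES2 on that scale (SE 0.0722, exact permutation p = 0.286), with differences between single libraries of the 2 groups running from -0.30 to 0.12. For PTGES against PTGES3 the difference in response was -0.02 (SE 0.113, exact permutation p = 0.886, range -0.35 to 0.35), and for PTGES2 against PTGES3 it was 0.08 (SE 0.1, exact permutation p = 0.657, range -0.07 to 0.46). No difference between the 3 falls passed the test. After adjustment over the 6 pairs, even pairs at the smallest p stood at 0.0857, so not passing after adjustment decides little. The ranges between single libraries, which are not confidence intervals, are too wide to call the falls alike. The size depends on the scale, because a pseudocount of 1 compresses the change of PTGES: with 0.1, PTGES fell by 0.31 more than PTGES2 (exact permutation, 0.114 after adjustment over the 6 pairs) and by 0.24 more than PTGES3 on the log2 scale. In levels, PTGES2 was 13.9 to 15.2 times PTGES in the controls and 15.4 to 23.7 times after SB, without overlap. PTGES3 was 96.6 to 135 times PTGES in the controls and 113 to 173 times after SB.

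CBR1, a carbonyl reductase that converts prostaglandin E2 into F2-alpha and reduces many other carbonyls, had the largest fall of the 8 enzymes on the log2(RPKM + 1) scale; by voom, which does not compress low genes, HPGD and PTGES fell more than CBR1 (-0.57). The gene lies on chromosome 21 (36069941 to 36073166, plus strand, 3 exons). It was 40.2, 37.4, 36.7 and 39.3 RPKM in control replicates 1 to 4 and 26.1, 25.4, 25.3 and 26.4 RPKM in the SB-treated ones. Both groups were tight and lay far apart. The mean fell by 32.8%, from 38.4 ± 1.61 to 25.8 ± 0.55 RPKM (SD, n = 4), a log2(RPKM + 1) difference of -0.55 (SE 0.0388, 95% interval -0.64 to -0.47, adjusted p = 2.54e-06 by limma), which was rank 542 from the lowest of all genes. SETD4, which overlaps CBR1 on the other strand, fell too, from 11.8 ± 0.363 to 8.72 ± 0.35 RPKM (-0.39, adjusted p = 1.86e-05 by limma). The strand setting of the authors' counting is not given in the sources used here, so reads of the 2 genes may not be separated.

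CBR3, the close relative of CBR1 next to it on the chromosome, fell less, from 2.99 ± 0.157 to 2.61 ± 0.0488 RPKM (log2 difference -0.15, adjusted p = 0.00666 by limma). The difference between their responses was -0.41 (SE 0.0381, exact permutation p = 0.0286, 0.0857 after Benjamini-Hochberg adjustment over 6 pairs), and library differences ran from -0.53 to -0.31, all on one side of 0. The ratio of CBR1 to CBR3 was 12.2 to 13.6 in the controls and 9.53 to 10.2 after SB. The pseudocount compresses the change of CBR3 more than that of CBR1. The 2 genes are alike in sequence, and how reads common to both were counted is not given in the sources used here.

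Carbonyl reductases are among the genes that the oxidative stress regulator NRF2 can induce, so 8 measured NRF2 targets were set beside CBR1. Among them 2 rose, 4 fell and 2 did not pass the test (median log2 difference -0.18, beside 0.0045 over all genes). The share that passed, 75%, is near the 65.6% of all genes. SRXN1, a sulfiredoxin, rose from 19.7 ± 0.669 to 28.0 ± 0.822 RPKM and GCLC, of glutathione synthesis, from 12.7 ± 1.25 to 14.7 ± 0.157 RPKM. TXN, thioredoxin, fell from 317.6 ± 5.65 to 218.0 ± 2.8 RPKM (log2 difference -0.54, and -0.27 with the GC content and length correction), and TXNRD1, thioredoxin reductase, from 50.99 ± 1.91 to 36.1 ± 0.156 RPKM.

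HPGD, 15-hydroxyprostaglandin dehydrogenase, inactivates prostaglandin E2 and F2-alpha. Its gene lies on chromosome 4 (174490175 to 174523154, minus strand, 7 exons). It was 1.23, 0.705, 0.832 and 0.768 RPKM in control replicates 1 to 4, and 0.610, 0.498, 0.414 and 0.490 RPKM in the SB-treated ones. Control replicate 1 was well above the other controls, and the remaining controls still lay above every SB-treated library. The mean fell by 43.0%, from 0.883 ± 0.235 to 0.503 ± 0.081 RPKM (SD, n = 4), over 84 to 158 reads per control and 53 to 71 per SB-treated library. The log2(RPKM + 1) difference was -0.32 (SE 0.0799, 95% interval -0.50 to -0.14, adjusted p = 0.0059 by limma), -0.24 without control replicate 1 (adjusted p = 0.00104 by limma), and -0.80 by voom. In the pair CBR1 and HPGD the difference in response was -0.24 with the pseudocount of 1 (SE 0.0775, exact permutation p = 0.0571) and 0.12 with 0.1, so which of the 2 fell more depends on the scale.

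PTGR2, prostaglandin reductase 2, reduces the 15-keto products that HPGD makes. The gene lies on chromosome 14 (73851831 to 73885726, plus strand, 10 exons). It was 15.42, 11.74, 12.15 and 11.20 RPKM in control replicates 1 to 4 and 12.99, 12.08, 12.05 and 11.98 RPKM in the SB-treated ones. The groups overlapped, with control replicate 1 the highest of all 8 libraries. The means were 12.6 ± 1.9 and 12.3 ± 0.478 RPKM, a log2(RPKM + 1) difference of -0.03 (95% interval -0.22 to 0.16, adjusted p = 0.778 by limma). Without control replicate 1 it was 0.06 (adjusted p = 0.143 by limma), so its sign depended on that library. ZADH2 (PTGR3), a further prostaglandin reductase, fell from 10.3 ± 0.404 to 8.59 ± 0.224 RPKM (log2 difference -0.24, adjusted p = 4.01e-04 by limma; -0.14 without the scaling factors).

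LTA4H, leukotriene A4 hydrolase, makes leukotriene B4 and is also an aminopeptidase. The gene lies on chromosome 12 (96000753 to 96043520, minus strand, 19 exons). It was 73.1, 65.8, 65.8 and 64.7 RPKM in control replicates 1 to 4 and 54.4, 53.7, 54.3 and 55.7 RPKM in the SB-treated ones. The controls other than replicate 1 lay close together, and all 4 were above the treated libraries. The mean fell by 19.0%, from 67.4 ± 3.87 to 54.6 ± 0.84 RPKM (SD, n = 4), a log2(RPKM + 1) difference of -0.30 (SE 0.0435, 95% interval -0.40 to -0.20, adjusted p = 0.000228 by limma), and of -0.26 without control replicate 1. With the GC content and length correction and without the authors' scaling factors it was -0.19 each, still past the threshold. LTA4H and PTGS2, of the leukotriene B4 and the prostaglandin branch, moved apart by -0.67 (SE 0.0754, exact permutation p = 0.0286, 0.0857 after adjustment over 6 pairs), with library differences from -0.94 to -0.48; with a pseudocount of 0.1 the difference was -1.17. The remaining 2 pairs, PTGS2 with PTGS1 and PTGR1 with PTGR2, could not be compared because a gene of each has no row.

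**Figure D3:**
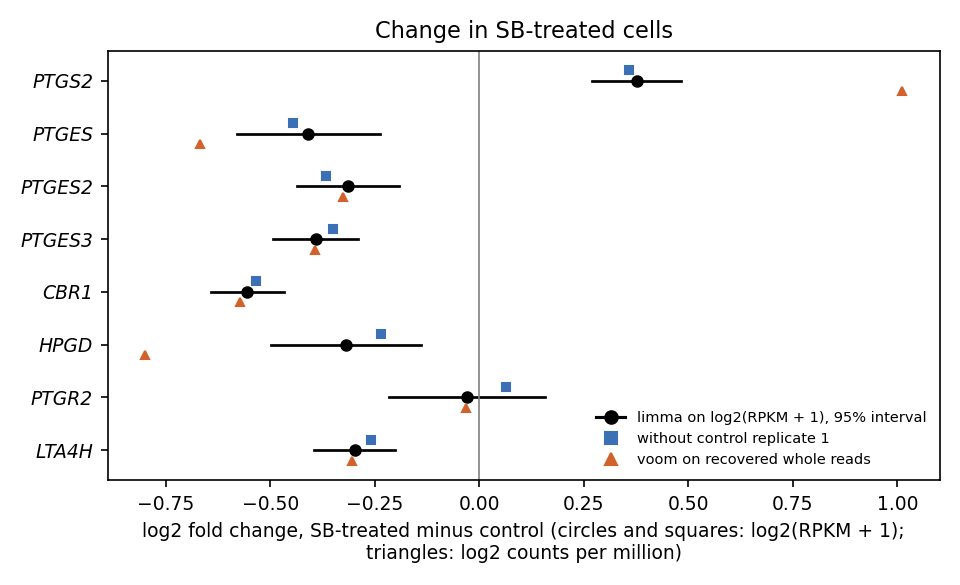
Log2 fold change of each enzyme, SB-treated minus control. Circles with 95% intervals are limma on log2(RPKM + 1), squares the same without control replicate 1, and triangles voom on the recovered reads. PTGS2 lies above 0 and 6 genes lie below it by all 3 measures, PTGR2 straddles 0, and the low-level genes PTGS2, PTGES and HPGD change more by voom.

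Of 65 further genes of the pathway in 8 lists, 39 had a row, and 13 rose, 13 fell and 13 did not pass the test. That is 66.7% changed, beside 65.6% of all genes, and a median log2 difference of 0.08. Without SB-treated replicate 1 the count that rose was 8, and without control replicate 1 it was 16. Leaving out the authors' scaling factors shifted the median of all genes to 0.113 on the log2 scale and gave 20 higher and 10 lower in the lists and 6253 higher (65.1% of calls) and 3357 lower among all genes, beside 4787 (50.2%) and 4740. The enzymes stayed at 1 higher and 6 lower under each scaling.

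Of 9 genes with a row in the arachidonate release list, 5 rose, 2 fell and 2 did not pass, where 33.0% of all genes rose and 32.6% fell. The list is broad: it also holds the diacylglycerol lipases DAGLA and DAGLB, which do not free the acid themselves. PLA2G15, a lysosomal phospholipase, was 4.15, 6.42, 5.64 and 6.15 RPKM in the controls and 8.36, 8.64, 8.53 and 8.50 RPKM after SB (log2 difference 0.54, adjusted p = 8.97e-04 by limma). DAGLA, a diacylglycerol lipase, rose from 3.46 ± 0.331 to 5.03 ± 0.187 RPKM (0.44, adjusted p = 8.81e-05 by limma; 0.27 with the GC content and length correction). PLA2G4A, the cytosolic phospholipase that supplies the cyclooxygenases, went the other way, from 1.48 ± 0.244 to 1.12 ± 0.0415 RPKM (-0.22, adjusted p = 0.0127 by limma, and -0.14 with that correction). PLA2G4C, another cytosolic phospholipase, rose from 0.775 ± 0.068 to 1.40 ± 0.127 RPKM (0.44, adjusted p = 3.32e-05 by limma, and 0.85 by voom). MGLL, the monoglyceride lipase, fell by 45.8%, from 1.56 ± 0.149 to 0.845 ± 0.0626 RPKM (-0.47, adjusted p = 2.35e-05 by limma; -0.88 by voom). Of 3 genes that put arachidonate back into lipids, ACSL4 rose (0.19, adjusted p = 0.0409 by limma), with groups that overlapped and a call lost under some alternatives, and LPCAT3 fell (-0.20, adjusted p = 3.68e-04 by limma; -0.10 without the scaling factors).

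Of 7 other prostanoid synthases with a row, 0 rose, 4 fell and 3 did not pass. The share that passed, 57.1%, was below the 65.6% of all genes, among which 33.0% rose and 32.6% fell. PTGDS, the prostaglandin D2 synthase, was 1.36, 1.35, 1.59 and 1.57 RPKM in the controls and 0.449, 0.650, 0.349 and 0.556 RPKM after SB, a fall of 65.8% (log2 difference -0.72, adjusted p = 1.1e-05 by limma; -1.55 by voom). No SB-treated library reached the lowest control. These values rest on few reads, 43 to 52 per control library and 12 to 21 per SB-treated library. AKR1B1, aldose reductase, which also makes prostaglandin F2-alpha, fell from 192.6 ± 19.8 to 155.6 ± 2.04 RPKM (-0.30, adjusted p = 0.00356 by limma; -0.13 with the GC content and length correction and -0.19 without the authors' scaling factors). PTGIS and TBXAS1, the prostacyclin and thromboxane synthases, were both below 1 RPKM in every library and did not pass the test.

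On the leukotriene side, 1 of 6 measured genes rose, 3 fell and 2 did not pass. The share that passed, 66.7%, is near the 65.6% of all genes (33.0% higher, 32.6% lower). Of those that fell, MGST2 (log2 difference -0.12, adjusted p = 0.0377 by limma) had groups that overlapped. ALOX5, 5-lipoxygenase, was 0.314 ± 0.066 RPKM in the controls and 0.476 ± 0.0667 RPKM after SB (0.17, adjusted p = 0.0115 by limma), a call that a GC correction ends (0.07) though voom gave 0.61. COTL1, an actin-binding protein that also binds 5-lipoxygenase, fell from 118.8 ± 1.21 to 68.96 ± 0.825 RPKM (-0.78, adjusted p = 1.26e-07 by limma). MGST3, a microsomal glutathione transferase that can make leukotriene C4, fell from 30.1 ± 0.246 to 27.0 ± 0.64 RPKM (-0.15, adjusted p = 0.00211 by limma), and a GC correction turned the sign (0.04). ALOX5AP and LTC4S, which present arachidonate to 5-lipoxygenase and make leukotriene C4, had no row. Among the 3 other lipoxygenases 1 fell, the epidermal ALOXE3, from 1.03 ± 0.0843 to 0.621 ± 0.0569 RPKM.

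Receptors moved little. Of 4 genes with a row in the prostanoid receptor list, which also holds the receptor partner PTGFRN, 2 rose and 2 did not pass. Of 2 leukotriene receptor genes 1 rose and 1 did not pass. In each of these lists 50% passed, beside 65.6% of all genes (33.0% higher, 32.6% lower). The genes that rose were PTGFRN (0.14, adjusted p = 0.0177 by limma), a partner of the prostaglandin F receptor, the receptor PTGFR (0.10, adjusted p = 0.0474 by limma) and the leukotriene B4 receptor LTB4R (0.11, adjusted p = 0.0347 by limma); each lost its call under at least 1 alternative. PTGER1, PTGER3 and PTGER4, receptors of prostaglandin E2, had no row. PTGER2, a further such receptor, was 0.603 ± 0.072 RPKM in the controls and 0.719 ± 0.047 RPKM after SB (0.10, adjusted p = 0.0555 by limma). Without control replicate 1 the difference was 0.11 (adjusted p = 0.0282 by limma), so the call depended on that library. Of 5 genes for transport and breakdown 3 rose and 2 fell, so 100% passed, beside 65.6% of all genes. The list was not tested as a set. SLCO2A1, the carrier that takes prostaglandins into cells for breakdown, rose from 0.870 ± 0.109 to 1.54 ± 0.0927 RPKM (0.44, adjusted p = 3.67e-05 by limma; 0.83 by voom), and ABCC1, an exporter of leukotriene C4, from 9.94 ± 1.2 to 11.4 ± 0.292 RPKM (0.19, adjusted p = 0.0427 by limma), a difference that was 0.11 without control replicate 1 and 0.0021, with no call, under the GC content and length correction. EPHX2, the soluble epoxide hydrolase, fell from 11.5 ± 0.389 to 8.99 ± 0.253 RPKM (-0.32, adjusted p = 4.8e-05 by limma).

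**Figure D4:**
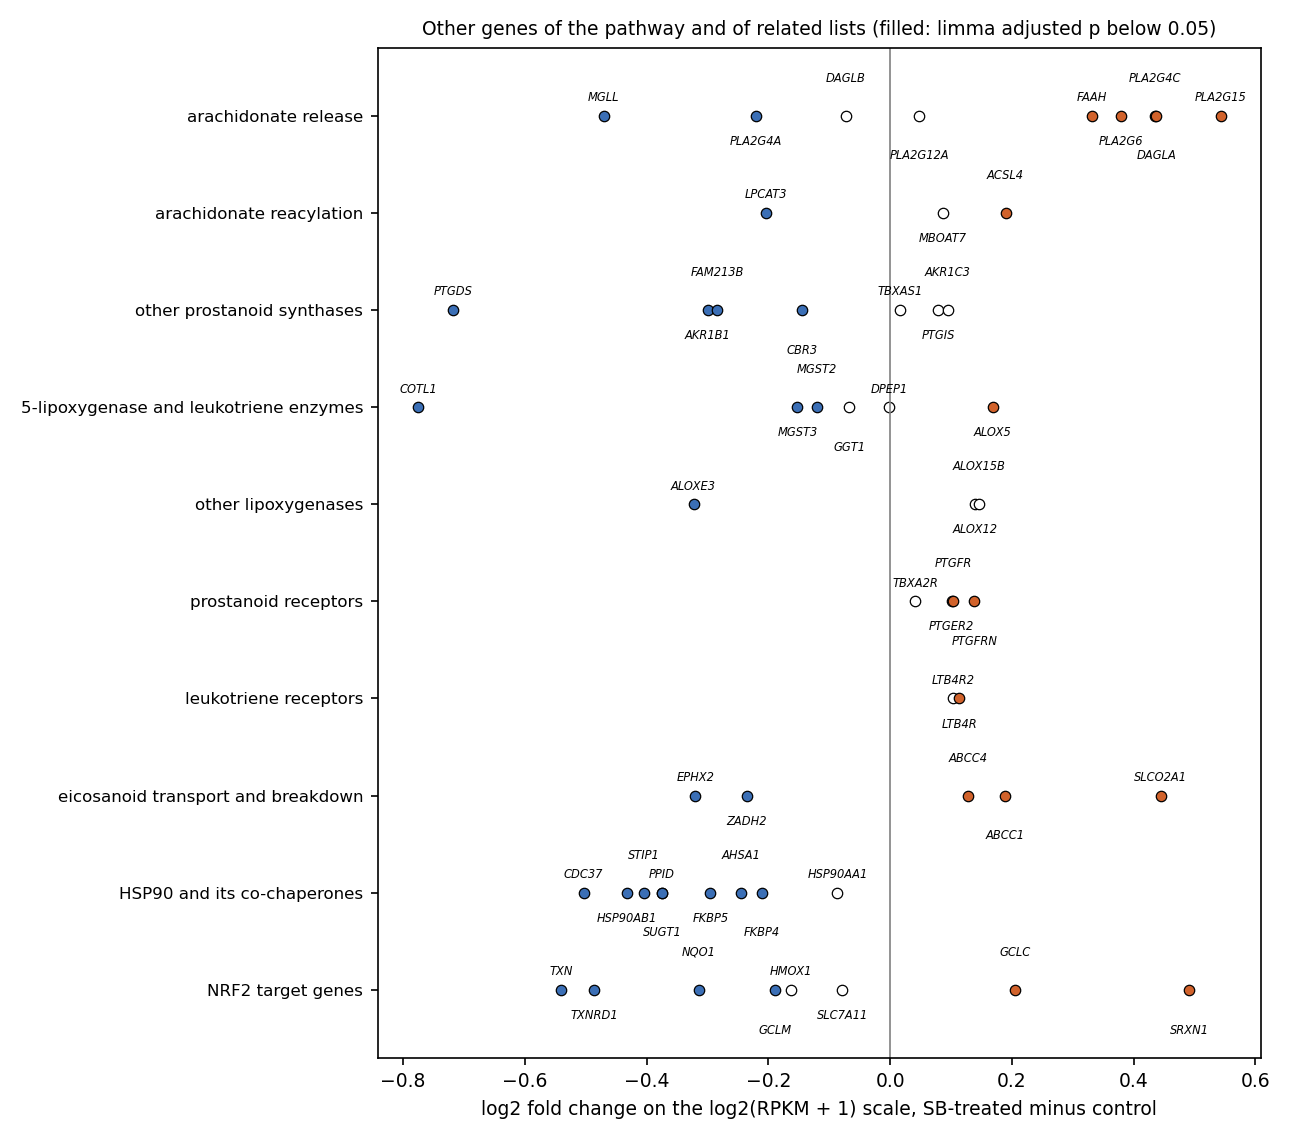
Log2 fold change on the log2(RPKM + 1) scale, SB-treated minus control, of each measured gene in 8 pathway lists and in the HSP90 and NRF2 lists, 1 line per list. Filled points passed the test (orange higher, blue lower) and open points did not. The 9 genes of the HSP90 list lie left of 0, 5 filled points of arachidonate release lie right of it, and COTL1 and PTGDS lie farthest left.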

How the data were processed

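Total RNA of 8 cultures, 4 control and 4 SB-treated, was sequenced as stranded single reads. The authors mapped reads to hg38 with TopHat2 2.1.0, counted them per gene with featureCounts 1.5.0 (strand setting not given in the sources used here), removed genes that did not exceed 1 CPM in 2 or more samples, scaled libraries by TMM in edgeR 3.16.5 and deposited RPKM per library. Columns of the authors' deposited log2 fold change, mean log2 CPM, p-value and FDR were not used. The number of unused columns of per-sample values was 0.

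Whole reads were recovered from the steps between low RPKM values for 100% of 14526 genes (tolerance 0.02 reads), giving 36990091 to 44878446 reads per library and TMM factors of 0.957 to 0.969 in control and 1.03 to 1.04 in SB-treated libraries. A gene whose reads share a common divisor in all libraries would be recovered too low.

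Changes were tested with limma 3.58.1 (lmFit, eBayes; R 4.3.3) on log2(RPKM + 1), with no further filter and Benjamini-Hochberg adjustment over all genes, and single genes and pairs with exact permutation tests (scipy 1.17.1). The fit was also run on simulated reads with few changed genes and no library that stood apart. That setting is unlike these data, so the run lends no support to the calls. All 10 listed genes, members of fixed pairs and the 5 genes most like PTGS2 are named. So are the 2 genes per pathway list with the largest rise and fall that passed. SETD4 was added because it overlaps CBR1, and PLA2G4C, MGST2 and PTGER2 were added after their values were seen. Of the hepatocyte marker and NRF2 lists, 1 gene each is not reported here. Members and lists were chosen with earlier results of these data known. Alternatives were a pseudocount of 0.1, a mean of at least 1 RPKM, other scalings, an intensity trend, voom, a GC content and length correction (GC content for 91.49% of genes), a block for the replicate number, and the omission of each library in turn. Chosen after seeing the data were voom with the block and the pseudocount for the genes like PTGS2.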

Additional observations from a re-analysis of the deposited data

Results flagged for a closer look

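Among 28 sets of 4 libraries examined (each enzyme and each pair in each group), 5 had 1 library far from the other 3, measured as its gap to the nearest library divided by the whole range and set against Dixon's 95% critical value; chance gives about 1 in 20, here 1.4. In the controls, replicate 1 was lowest for PTGES2 (0.878) and highest for LTA4H (0.86). It was also lowest for the difference PTGES2 minus PTGES3 (0.937). In the SB-treated group, replicate 1 was highest for PTGR2 (0.905) and replicate 2 was highest for the difference PTGES2 minus PTGES3 (0.85). Without control replicate 1, the log2(RPKM + 1) difference of PTGES2 was -0.37 and that of LTA4H -0.26. The cause was not tested.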

How the results depend on the processing

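PTGS2 stayed higher and PTGES, PTGES2, PTGES3, LTA4H, CBR1 and HPGD lower, past the threshold, under each alternative that tested them. With a mean of at least 1 RPKM, PTGS2 and HPGD were not tested, so 0 enzymes were higher. The log2 difference of PTGR2 was -0.03 and turned to 0.0687 without TMM factors, to 0.0657 with the GC content and length correction, with or without the replicate block, and ranged from -0.0785 to 0.0642 on leaving out each library. In the same correction, with or without the block, PTGES minus PTGES2 was 0.0301, PTGES minus PTGES3 was 0.0349, MGST3 was 0.0367 and PTGES3L was 0.0062. Leaving out each library gave -0.0964 to 0.0477 for PTGES minus PTGES3 and -0.0175 to 0.112 for PTGES2 minus PTGES3. CBR1 minus HPGD was 0.1154 with a pseudocount of 0.1. Pathway genes that rose numbered 20 without TMM factors and 8 to 16 on leaving out each library, and those that fell 12 to 15. Over all genes, leaving out each library gave 4311 to 5459 higher and 4285 to 5511 lower. Of 22 counts per list, 14 moved by over 1.5 times under at least 1 of the 18 alternatives run for them, and of 32 single genes 8 lost their call and 2 turned. The causes were not tested.

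Same-numbered libraries correlated at 0.38, 0.327, 0.173 and -0.16, and after the GC content and length correction at 0.0989, 0.128, 0.0472 and -0.0991, so the numbers were not taken to pair the samples. Replicates 1 and 2 correlated best with their own number (at most 0.139 and 0.288 with another), and replicates 3 and 4 with another (0.288 and 0.224). With the replicate block 4885 genes were higher and 4894 lower, and 1 enzyme was higher and 6 lower (PTGS2, log2 difference 0.38, adjusted p = 0.000313; HPGD, -0.32, adjusted p = 0.00148; limma). Voom called 4864 genes higher and 4758 lower, and 4987 and 4972 with the block. For the 6 pairs of genes a test on 4 library pairs can give no p below 0.125. PTGS2, PTGES and HPGD, with 53 to 170 reads per library, are the enzymes whose values counting limits most.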
